A study of Mus musculus with 9 samples.

Results

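Blastocysts from oocytes that were injected with normal sperm and then treated with ionomycin (ICSI-AOA) were compared with blastocysts from oocytes that were injected with normal sperm alone (ICSI). Members were chosen by label. They were the 6 libraries of these 2 groups, out of 9 in the series, and the 4304 genes, out of 22564 deposited, with a mean FPKM (fragments per kilobase of transcript, scaled for library size) of at least 1 over the 9 libraries. The ICSI-AOA group held replicates 1, 4 and 5 and the ICSI group held replicates 2, 5 and 6. All mice were C57BL/6, all embryos were collected on day 3.5 after fertilization, and each library was made from total RNA of a pool of blastocysts. The other 3 libraries (dICSI-AOA, replicates 1, 4 and 5) came from sperm whose oocyte-activating capacity had been lowered, with ionomycin after injection, and entered the fit so that the spread was shared by all groups. The study describes independent replicates, and p-values measure only the spread between these libraries.

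ICSI (intracytoplasmic sperm injection) places a sperm directly into the oocyte. A sperm factor then normally starts repeated rises of calcium in the oocyte, and these rises release it from meiotic arrest. Artificial oocyte activation (AOA) supplies calcium by a short exposure to an ionophore such as ionomycin, which carries calcium across membranes. By the blastocyst stage the embryo holds an outer trophectoderm, which later contributes to the placenta, and an inner cell mass that gives the epiblast and the primitive endoderm.

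The libraries were shallow. ICSI-AOA libraries held 150387 to 154606 fragments and ICSI libraries 128176 to 172307 fragments, and 1973 to 1989 genes had 10 or more fragments in ICSI-AOA libraries, against 1788 to 2030 in ICSI libraries. Defining markers of the blastocyst were largely missing. Pou5f1, Nanog, Sox2, Gata3 and Sox17 were at 0 fragments in all 9 libraries. Cdx2, the trophectoderm transcription factor, had 2, 1 and 1 fragments in ICSI-AOA libraries and 4, 2 and 2 in ICSI libraries. Actb, a cytoskeletal gene that every cell uses, had 5, 4 and 12 fragments in ICSI-AOA libraries and 12, 11 and 5 in ICSI libraries. The 4286 genes whose exons overlap exons of a gene on the opposite strand by at least 100 bp held 60.5% of all fragments. The strand setting of the counting is not given in the sources used here. The reads of a gene and of its opposite-strand partner can therefore not be told apart, and the partner and overlap in bp are given for the genes described below that have one.

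Of the 4304 genes, 304 were called (7.06%), which means a fold over 1.3 and an unadjusted p under 0.05 by edgeR's quasi-likelihood test. ICSI-AOA blastocysts were higher in 129 of them (3%) and lower in 175 (4.07%). An unadjusted p under 0.05, with no fold rule, was reached by 307 genes (7.13%). Only 1 gene, Vps26b, passed an adjusted p of 0.05 (0.0232% of the genes, Benjamini-Hochberg). No gene passed when any of ICSI-AOA 1, ICSI-AOA 4, ICSI-AOA 5, ICSI 5, ICSI 6 or dICSI-AOA 5 was left out, and 4 passed without ICSI 2, 3 without dICSI-AOA 1 and 2 without dICSI-AOA 4. The median log2 difference over all genes was −0.02. In 226 of the called genes (5.25% of all genes tested) the groups did not overlap in scaled CPM. All 3 ICSI-AOA libraries lay above all 3 ICSI libraries in 104 of these (2.42%) and below them in 122 (2.83%). Among all genes, called or not, the groups did not overlap in 572 (13.3%), with ICSI-AOA above in 283 (6.58%) and below in 289 (6.71%).

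**Figure D1:**
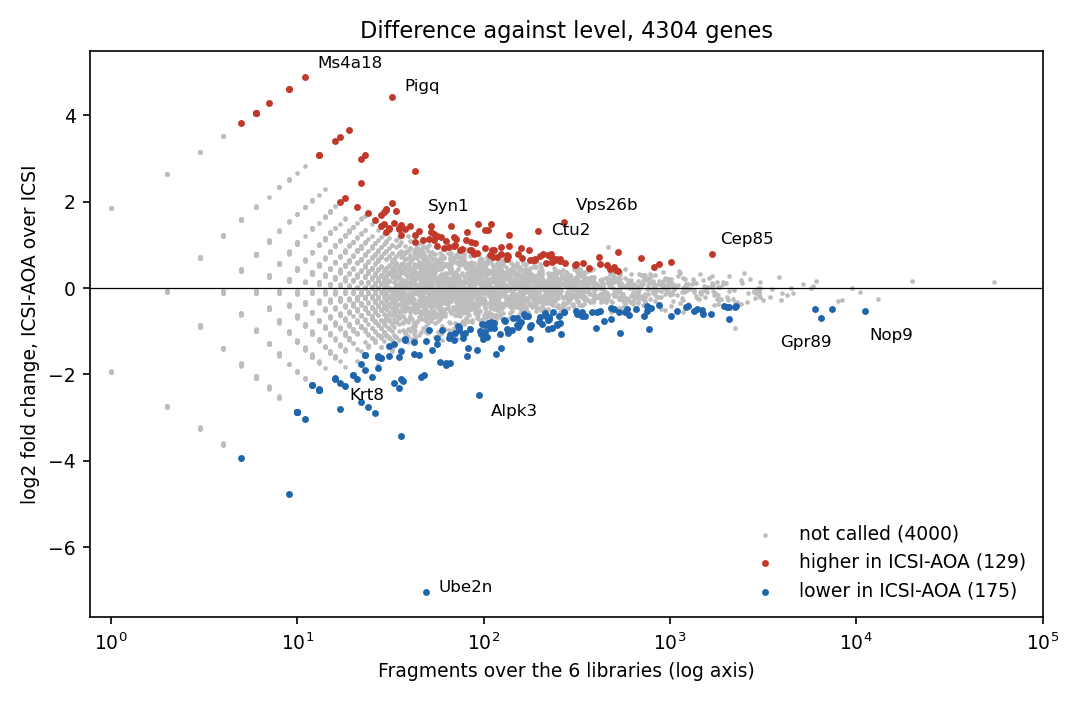
Log2 difference of ICSI-AOA from ICSI blastocysts (vertical axis) against the fragments of each gene summed over the 6 libraries (horizontal axis, log scale), with 1 point for each of the 4304 genes. The 129 genes called higher and the 175 called lower are coloured, and small differences were called only at high fragment numbers.

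The split between higher and lower calls moved with the scaling between libraries. By TMM, which assumes that most genes do not differ, 42.4% of the calls were higher. With total fragments as the only scaling 154 genes were called higher and 139 lower. With the factor by which the authors' counts had been scaled in each library, 306 genes were called higher and 45 lower, and the median over all genes was 0.25. limma on log2(FPKM + 1) called 269 higher and 63 lower, with a median of 0.20. Upper quartile scaling gave 134 higher and 171 lower. The authors' factor was 1.06 ± 0.20 in ICSI-AOA libraries and 0.929 ± 0.061 in ICSI libraries (SD, n = 3 each, exact permutation test, two-sided, p = 0.4). The directions below are those after TMM.

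**Figure D2:**
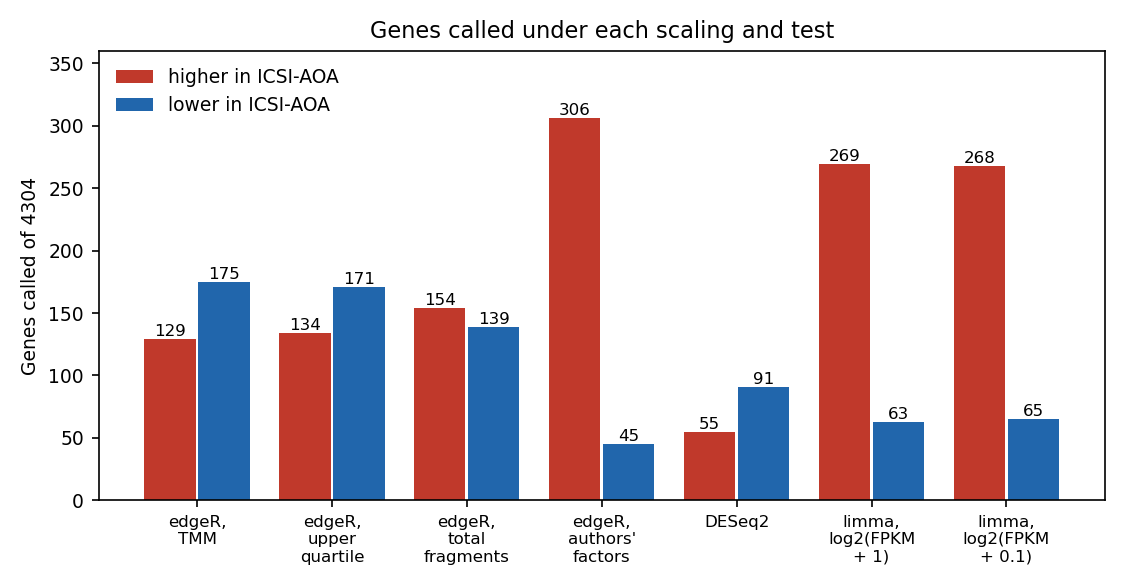
Genes called in each direction between ICSI-AOA and ICSI blastocysts (vertical axis, number of genes, printed above each bar) under each scaling or test (horizontal axis). Higher calls ranged between 55 with DESeq2 and 306 with the authors' factors, and lower calls between 45 with the authors' factors and 175 with TMM.

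Vps26b stood first among the higher genes. It encodes a subunit of retromer, the coat that returns cargo from endosomes to the Golgi and the cell surface. The gene (ENSMUSG00000031988) lies on the minus strand of chromosome 9 at 27007771 to 27030065 (mm10). It had 72, 77 and 55 fragments in ICSI-AOA libraries, against 27, 18 and 20 in ICSI libraries. The groups did not overlap, and the level was 457 ± 75.4 CPM in ICSI-AOA and 160 ± 50.6 CPM in ICSI blastocysts (SD, n = 3 each, CPM being fragments scaled to a common library size after TMM). The log2 difference was 1.52 (SE 0.28), with an adjusted p of 0.0484 by edgeR, and the adjusted p lay between 0.000111 and 0.505 over the 22 alternatives run. The unadjusted call held under all of them. dICSI-AOA libraries had 32, 22 and 48 fragments of Vps26b. ICSI-AOA exceeded dICSI-AOA by 1.04 (SE 0.27) on the log2 scale, with an adjusted p of 0.212 in the edgeR test of that difference.

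The promoter of Vps26b is printed because this was the only gene past the adjusted threshold, and that of Syn1, described next, because it holds a cyclic AMP response element (CRE), the site of the calcium- and cAMP-regulated factor CREB. Both were chosen after the values were seen. The windows run from 250 bases before to 50 bases after the start site (RefSeq, GRCm38.p6), at chr9:27030045-27030344 for Vps26b and chrX:20920869-20921168 for Syn1, both on the minus strand and written 5′ to 3′. Capitals mark the CRE, TGACGTCA, which reads the same on both strands.
Vps26b: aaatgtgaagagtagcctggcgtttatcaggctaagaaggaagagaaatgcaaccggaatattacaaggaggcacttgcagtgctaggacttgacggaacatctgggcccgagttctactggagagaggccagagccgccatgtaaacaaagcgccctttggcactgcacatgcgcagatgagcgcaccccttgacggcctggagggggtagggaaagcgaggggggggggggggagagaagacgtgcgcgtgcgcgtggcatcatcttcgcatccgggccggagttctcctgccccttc
Syn1: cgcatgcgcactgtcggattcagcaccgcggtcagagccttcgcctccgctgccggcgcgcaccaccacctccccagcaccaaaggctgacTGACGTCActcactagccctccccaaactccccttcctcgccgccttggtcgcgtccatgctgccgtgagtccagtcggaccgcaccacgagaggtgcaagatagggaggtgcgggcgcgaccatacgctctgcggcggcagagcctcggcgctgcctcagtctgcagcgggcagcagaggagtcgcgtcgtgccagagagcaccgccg
The CRE in the Syn1 window begins at −159 from the start site, and the Vps26b window held none. These letters were found in 588 of 32851 mouse promoter windows of this length (1.79%). GC content was 58.7% in the Vps26b window and 68.3% in the Syn1 window. A match describes the sequence only.

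Syn1, Syt12 and Kctd18 were also higher in ICSI-AOA blastocysts. Syn1 encodes synapsin I, a protein of synaptic vesicles in neurons. It had 22, 25 and 23 fragments in ICSI-AOA libraries and 7, 9 and 7 in ICSI libraries (log2 difference 1.49, SE 0.36), and 22, 21 and 18 in dICSI-AOA libraries. Its exons overlap those of Araf by 9 bp. The groups were far apart for Syn1, with little spread inside either. Syt12, of the synaptotagmin family of membrane-trafficking proteins, had 118, 167 and 162 fragments in ICSI-AOA libraries, against 70, 89 and 97 in ICSI libraries (0.70, SE 0.20). It shares 950 bp with A930001C03Rik. Kctd18, named for a tetramerisation domain first seen in potassium channels, had 125, 124 and 97 fragments in ICSI-AOA libraries and 46, 51 and 82 in ICSI libraries (0.84, SE 0.23), and shares 2455 bp with Sgo2a. For both genes every ICSI-AOA library lay above every ICSI library after scaling.

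Ctu2 and Krr1 act in RNA modification and ribosome assembly. Ctu2 encodes a subunit of the enzyme that adds sulphur to uridine in certain cytosolic tRNAs. It had 39, 53 and 51 fragments in ICSI-AOA libraries, against 14, 16 and 23 in ICSI libraries, a log2 difference of 1.32 (SE 0.28) with an adjusted p of 0.119 by edgeR. The gene lies on chromosome 8 at 122476143 to 122484138 and shares 2441 bp with Piezo1, which encodes a mechanically gated cation channel. Krr1, a component of the small-subunit processome, had 101, 89 and 77 fragments in ICSI-AOA libraries, against 56, 46 and 46 in ICSI libraries (0.73, SE 0.23). It shares 352 bp with Glipr1. The lowest ICSI-AOA library exceeded the highest ICSI library in both genes.

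Paqr5, a membrane progestin receptor, had 14, 37 and 23 fragments in ICSI-AOA libraries and 7, 13 and 7 in ICSI libraries (1.34, SE 0.41). 1700034J05Rik had 18, 33 and 26 fragments in ICSI-AOA libraries, against 5, 10 and 13 in ICSI libraries (1.34, SE 0.39). 6430550D23Rik, which shares 1149 bp with Cep250, had 37, 40 and 30 fragments in ICSI-AOA libraries and 18, 19 and 15 in ICSI libraries (0.93, SE 0.28). Sgsh encodes the lysosomal sulfamidase that removes sulfate from heparan sulfate. It had 39, 52 and 44 fragments in ICSI-AOA libraries, against 18, 34 and 21 in ICSI libraries (0.79, SE 0.26), and shares 955 bp with Card14.

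Some genes called higher had few or no fragments in ICSI blastocysts. Without the ICSI-AOA libraries 11 of the 129 higher genes would not have reached the FPKM filter, Fam198b, Ms4a18 and Mrps34 below among them, so that a difference in these was built into their choice. The same held, without the ICSI libraries, for 11 of the 175 lower genes, Mttp and Ube2n among them. Pigq encodes a subunit of the enzyme of the first step of GPI anchor synthesis. It had 10, 15 and 6 fragments in ICSI-AOA libraries, against 0, 0 and 1 in ICSI libraries, a ratio of 28.8 with a 95% counting interval of 4.8 to 1173, and shares 957 bp with Gm16278. Elovl1, which elongates very long chain fatty acids, had 6, 6 and 9 fragments in ICSI-AOA libraries and 1, 1 and 0 in ICSI libraries, a ratio of 9.75 (2.38 to 85.8), and shares 53 bp with Cdc20. Zfp119b, a zinc finger gene, had 7, 7 and 2 fragments in ICSI-AOA libraries and 0, 1 and 0 in ICSI libraries, a ratio of 14.9 (2.31 to 623). Fam198b had 5, 11 and 2 fragments in ICSI-AOA libraries and 0, 1 and 0 in ICSI libraries, a ratio of 16.7 (2.64 to 696), and shares 711 bp with Gm36569. These intervals cover counting error only. The ICSI group had 1 or 2 fragments in all of each of these 4 genes. dICSI-AOA libraries together had 8 fragments of Pigq, 11 of Elovl1, 10 of Zfp119b and 1 of Fam198b.

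Another 3 genes were at 0 in all ICSI libraries. Ms4a18 had 5, 3 and 3 fragments in ICSI-AOA libraries. Its ratio was 3.40 when 3 fragments over the ICSI group are put in place of 0, with no allowance for counting error in ICSI-AOA. The counting interval of its ratio, with the ICSI count kept at 0, had a lower end of 2.33. Mrps34, of the small subunit of the mitochondrial ribosome, had 3 fragments in each ICSI-AOA library, with a lower end of 1.83. It shares 1309 bp with Mapk8ip3. Ccdc101 had 2, 2 and 5 fragments in ICSI-AOA libraries, likewise with a lower end of 1.83, and shares 169 bp with 2510046G10Rik. The neighbour of Ms4a18, Ms4a15, had 10, 17 and 11 fragments in ICSI-AOA libraries and 4, 0 and 1 in ICSI libraries (2.72, SE 0.79). The genes encode membrane-spanning proteins of the MS4A family and lie 3775 bp apart on chromosome 19.

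**Figure D3:**
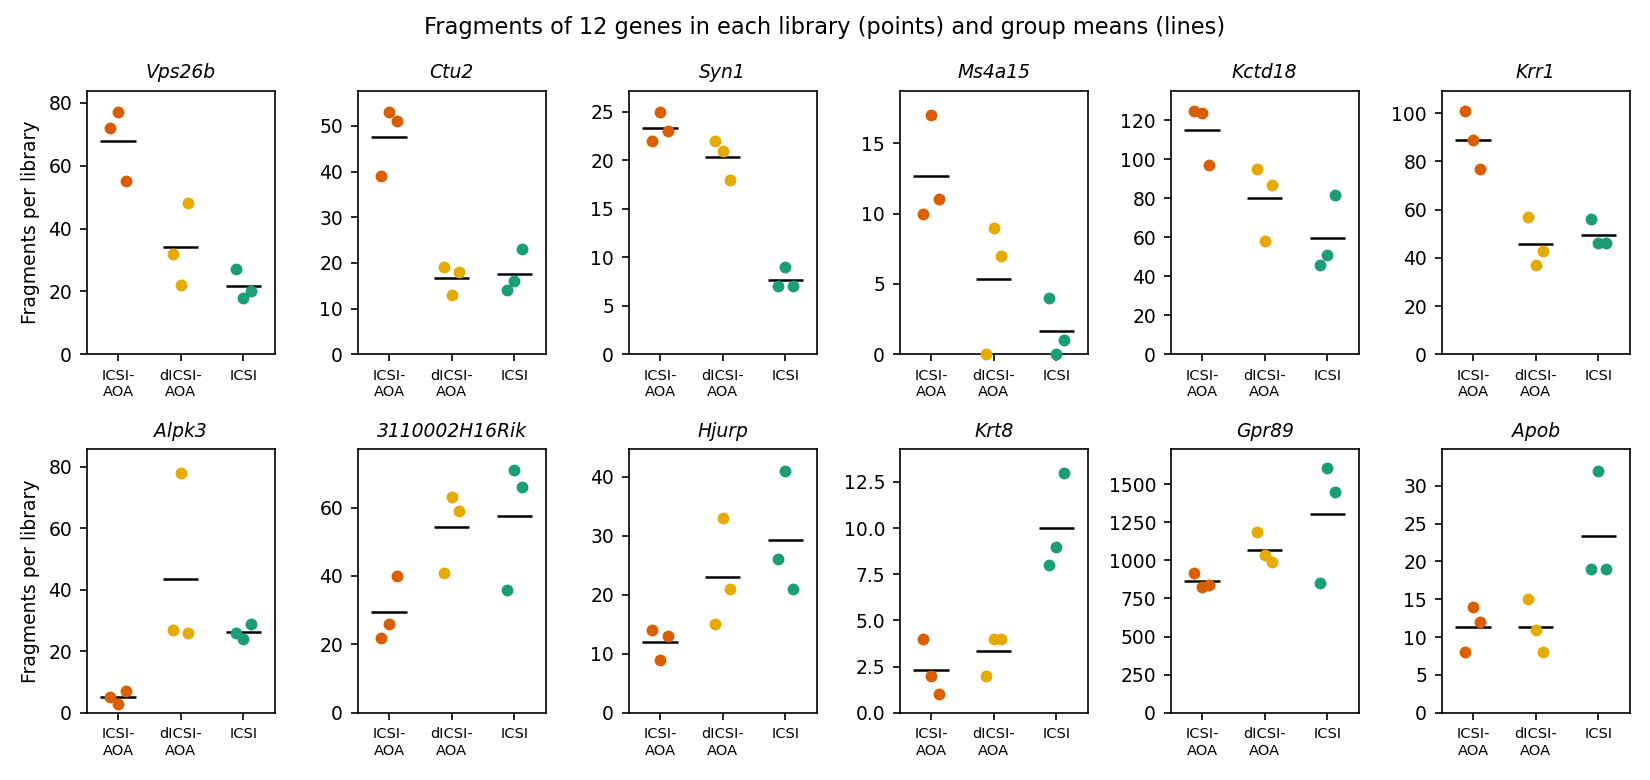
Fragments of 12 genes (vertical axis, fragments per library, 1 panel per gene) in the ICSI-AOA, dICSI-AOA and ICSI groups (horizontal axis), with 1 point per library and a line at the group mean. Vps26b reached 55 to 77 fragments in ICSI-AOA and 18 to 27 in ICSI libraries, and Krt8 1 to 4 fragments in ICSI-AOA and 8 to 13 in ICSI libraries.

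Alpk3 stood first among the lower genes. It encodes an alpha-kinase known from heart muscle and lies on the plus strand of chromosome 7 at 81057600 to 81105612. It had 5, 3 and 7 fragments in ICSI-AOA libraries, against 26, 24 and 29 in ICSI libraries. The level was 33.7 ± 13.6 CPM in ICSI-AOA and 193 ± 31.6 CPM in ICSI blastocysts (SD, n = 3 each), a log2 difference of −2.48 (SE 0.49) with an adjusted p of 0.0569 by edgeR. The groups did not overlap. On FPKM the call was not made, with a difference of −0.73 in limma on log2(FPKM + 1).

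Krt8, Mttp and Apob were lower in ICSI-AOA blastocysts. Krt8 encodes keratin 8, an intermediate filament protein of simple epithelia and a trophectoderm marker. It had 4, 2 and 1 fragments in ICSI-AOA libraries, against 8, 9 and 13 in ICSI libraries (−2.15, SE 0.62), and the call held under every alternative run. Its exons overlap Gm36026 by 101 bp. Mttp, which loads lipid onto apolipoprotein B, had 2, 1 and 4 fragments in ICSI-AOA libraries and 8, 10 and 11 in ICSI libraries (−2.10, SE 0.63). It shares 457 bp with Trmt10a. Apob, the apolipoprotein itself, had 8, 14 and 12 fragments in ICSI-AOA libraries, against 19, 32 and 19 in ICSI libraries (−1.13, SE 0.37). Neither Mttp nor Apob was called by limma on log2(FPKM + 1), where the differences were −0.93 for Mttp and −0.02 for Apob. Within fragments the groups of all 3 genes did not overlap.

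Hjurp, Yy2 and Elf2, whose products act in the nucleus, were lower as well. Hjurp, the chaperone that places the centromeric histone CENP-A, had 14, 9 and 13 fragments in ICSI-AOA libraries and 26, 41 and 21 in ICSI libraries (−1.38, SE 0.36). It was not called by limma on log2(FPKM + 1), where the difference was −0.06. Yy2, a zinc finger transcription factor related to Yy1, had 2, 4 and 4 fragments in ICSI-AOA libraries and 10, 9 and 19 in ICSI libraries (−2.0, SE 0.54). Elf2, an ETS transcription factor, had 5, 7 and 9 fragments in ICSI-AOA libraries, against 14, 33 and 13 in ICSI libraries (−1.58, SE 0.43), and shares 371 bp with 4930577N17Rik.

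Exoc3, P4hb and Gpx7 act in secretion and in the endoplasmic reticulum. Exoc3, a subunit of the exocyst that tethers secretory vesicles, had 35, 81 and 70 fragments in ICSI-AOA libraries, against 112, 145 and 98 in ICSI libraries (−1.03, SE 0.27). P4hb, a protein disulfide isomerase, had 0, 3 and 3 fragments in ICSI-AOA libraries and 6, 9 and 12 in ICSI libraries (−2.21, SE 0.69). Gpx7, a peroxidase of the endoplasmic reticulum, had 3, 14 and 14 fragments in ICSI-AOA libraries, against 19, 41 and 25 in ICSI libraries (−1.53, SE 0.50). The groups did not overlap in these 3 genes, although dICSI-AOA libraries of Gpx7 ran from 2 to 25 fragments.

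Lower calls were more frequent among the genes with the most fragments. Of the 148 genes with 1000 or more fragments over the 6 libraries, 2 were called higher and 19 lower (14.2% called). Of the 495 genes with fewer than 10, 7 were called higher and 2 lower (1.82%). The smallest log2 difference called was 3.82 in size below 10 fragments and 0.41 at 1000 or more. The majority of lower calls in the top class stayed with total fragments only, where 3 genes were called higher and 15 lower. It also stayed with DESeq2, at 1 higher and 16 lower. It was gone with the authors' factors, where 8 genes were called higher and 0 lower. Under those factors the median of this class was 0.21, against −0.08 after TMM.

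**Figure D4:**
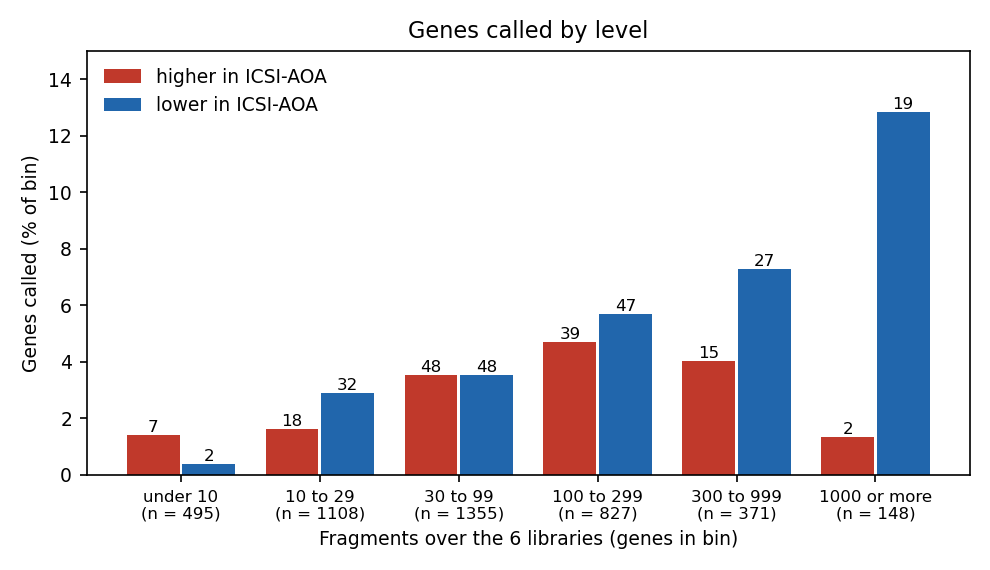
Genes called in each direction between ICSI-AOA and ICSI blastocysts (vertical axis, percent of the class, with the number above each bar) in 6 classes of fragments summed over the 6 libraries (horizontal axis, number of genes in brackets). The class of 1000 or more fragments held 2 higher and 19 lower calls.

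Among these genes were Gpr89 and Nop9. Gpr89, a protein of the Golgi membrane, had 920, 825 and 840 fragments in ICSI-AOA libraries, against 850, 1609 and 1448 in ICSI libraries (−0.69, SE 0.16), and shares 1333 bp with Pdzk1. Nop9, a nucleolar protein of ribosome assembly, had 1435, 1548 and 1753 fragments in ICSI-AOA libraries and 1815, 2585 and 1983 in ICSI libraries (−0.53, SE 0.13). It shares 1136 bp with Cideb. With the authors' factors neither was called, at −0.41 for Gpr89 and −0.26 for Nop9. Hcn3, a pacemaker channel gene that shares 711 bp with Pklr, had 1182, 891 and 1151 fragments in ICSI-AOA libraries and 1277, 1569 and 1317 in ICSI libraries (−0.47), and was not called without ICSI-AOA 4 (−0.35). Abi3 had 860, 733 and 997 fragments in ICSI-AOA libraries and 935, 1701 and 791 in ICSI libraries (−0.49). It was not called without ICSI-AOA 4 or without ICSI 5 (−0.38 to −0.20), and it shares 2913 bp with Zfp652. Hcn3 and Abi3 were likewise not called with the authors' factors, at −0.16 for Hcn3 and −0.21 for Abi3.

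Many calls did not hold when 1 library was left out. Of the 304 called genes, 169 to 211 were called again without 1 ICSI-AOA or ICSI library, and 282 to 303 without 1 dICSI-AOA library. Leaving out a library also shrinks a group, so a lost call need not mean a smaller difference. Vps29, at 1.37 with all libraries, reached up to 1.39 where its call was lost. Of the 82 called genes chosen by rule, 33 stayed called whichever library was left out and 49 did not. Ube2n, a ubiquitin-conjugating enzyme, was the extreme case. It had 0 fragments in every ICSI-AOA and dICSI-AOA library and 0, 49 and 0 in ICSI libraries, and without ICSI 5 no fragment was left. Acot11, an acyl-CoA thioesterase whose exons overlap Fam151a by 1263 bp, had 1 fragment in each ICSI-AOA library and 3, 7 and 13 in ICSI libraries (−2.89, SE 1.10), and was not called without ICSI 6 (−2.27). Elf5, a trophectoderm transcription factor, had 4, 4 and 3 fragments in ICSI-AOA libraries and 2, 24 and 5 in ICSI libraries. It was not called without ICSI-AOA 5 or without ICSI 5 (−1.41 to −0.11).

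The genes were also counted by function. Over all genes tested 3% were called higher, 4.07% lower and 7.06% in either direction, and the median log2 difference was −0.02. These lists are small, and lists and members were chosen with earlier results of these data known. Their counts are given only as a description beside those shares. Of 14 tested genes of cholesterol synthesis and lipid uptake, none was called higher and 4 lower (28.6% called), with a median of −0.20. These were Mttp, Apob, Apoa4 and Cyp51. Apoa4 had 62, 66 and 61 fragments in ICSI-AOA libraries and 49, 125 and 118 in ICSI libraries, and was not called without ICSI 6 (−0.52). Cyp51, the lanosterol demethylase of sterol synthesis, had 40, 43 and 50 fragments in ICSI-AOA libraries and 51, 74 and 55 in ICSI libraries (−0.54). It was not called without ICSI-AOA 1, ICSI-AOA 4 or ICSI 5 (−0.51 to −0.45). Only Cyp51 of the 4 makes sterol, and the others carry or assemble lipoproteins. Apoa4 shares 634 bp with Gm47528 and Cyp51 166 bp with Akap9.

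Of 43 zinc finger (Zfp) genes 5 were called higher and none lower (11.6% called), with a median of 0.10. Zfp119b kept its call whichever library was left out. Zfp784 had 46, 36 and 47 fragments in ICSI-AOA libraries and 20, 20 and 31 in ICSI libraries (0.75, SE 0.28), and was not called without ICSI 5 (0.57). It shares 2041 bp with Zfp865. Zfp599 had 12, 18 and 20 fragments in ICSI-AOA libraries and 10, 8 and 3 in ICSI libraries (1.13), and was not called without ICSI-AOA 4, ICSI-AOA 5 or ICSI 6 (0.78 to 1.07). Zfp605 had 3, 2 and 0 fragments in ICSI-AOA libraries and 0 in every ICSI library, and shares 132 bp with Gm15484. It was not called without ICSI-AOA 1, ICSI-AOA 4 or any 1 ICSI library (3.15 to 3.85). The remaining call, Zfp296, is not described here. Of 14 genes of retromer and endosomal sorting 2 were called higher and 1 lower (21.4% called), with a median of 0.15. Beside Vps26b these were Vps29, another retromer subunit, with 9, 10 and 9 fragments in ICSI-AOA libraries and 1, 7 and 2 in ICSI libraries (1.37), and Vps37b, of the ESCRT-I complex, with 40, 32 and 42 fragments in ICSI-AOA libraries and 45, 68 and 44 in ICSI libraries (−0.56). Each lost its call without any of 4 libraries, Vps29 without ICSI-AOA 4, ICSI-AOA 5, ICSI 2 or ICSI 6 (1.02 to 1.39) and Vps37b without ICSI-AOA 1, ICSI-AOA 4, ICSI 2 or ICSI 5 (−0.59 to −0.42). Vps29 shares 340 bp with Fam216a and Vps37b 918 bp with Hip1r.

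Lysosomal genes had 2 higher calls and no lower call among 28 (7.14%), a share near that of all genes. These were Sgsh and Gla. Gla, the alpha-galactosidase, had 4, 11 and 12 fragments in ICSI-AOA libraries and 0, 3 and 4 in ICSI libraries (1.80), and was not called without ICSI-AOA 5 or ICSI 2 (1.3 to 1.53). Genes of GPI anchor synthesis had 2 higher calls (Pigq and Pigz) and 1 lower (Pigf, which shares 312 bp with Rhoq) among 9. Pigq held its call when single libraries were left out. Pigz was not called without ICSI-AOA 4, ICSI-AOA 5, ICSI 5 or ICSI 6 (0.56 to 0.92), and Pigf was not called without ICSI-AOA 4, ICSI-AOA 5 or ICSI 2 (−0.47 to −0.42).

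Calcium handling and inositol metabolism had shares of calls near that of all genes. Of 28 genes of calcium handling none was called higher and 2 were called lower (7.14%). Cacna2d4, a calcium channel subunit, had 17, 32 and 34 fragments in ICSI-AOA libraries and 26, 87 and 38 in ICSI libraries (−0.93), and was not called without ICSI-AOA 1 or ICSI 5 (−0.67 to −0.39). Atp2a2, which encodes the SERCA pump that returns calcium to the endoplasmic reticulum, had 12, 4 and 0 fragments in ICSI-AOA libraries and 18, 20 and 12 in ICSI libraries (−1.73). It was not called without ICSI-AOA 4 or ICSI-AOA 5 (−1.56 to −1.16), and it shares 83 bp with Gm43361. Of 26 genes of inositol phosphate metabolism 2 were called higher, Plcg1 and Synj2, and none lower (7.69%). Plcg1 shares 379 bp with Zhx3 and Synj2 297 bp with Serac1. Plcg1, a phospholipase C that makes inositol trisphosphate, had 18, 18 and 20 fragments in ICSI-AOA libraries and 9, 11 and 8 in ICSI libraries (0.89, SE 0.37), and was not called without ICSI-AOA 5 or ICSI 6 (0.80 to 0.83). Synj2, an inositol phosphatase, was not called when ICSI-AOA 1, ICSI-AOA 4 or any 1 ICSI library was left out (0.80 to 0.98).

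Of 17 imprinted genes only Ago2, which shares 219 bp with Chrac1, was called (5.88%). It was lower (−0.84, SE 0.37), and not called without ICSI-AOA 4, ICSI-AOA 5, ICSI 2 or ICSI 6 (−0.85 to −0.54). Of 57 genes of DNA methylation and chromatin 2 were called lower (3.51%). Prmt7, an arginine methyltransferase, was not called without ICSI-AOA 4, ICSI 5 or ICSI 6 (−0.49 to −0.37), and Arid4b without ICSI-AOA 5, ICSI 2 or ICSI 6 (−1.09 to −0.77). Prmt7 shares 247 bp with Smpd3 and Arid4b 257 bp with Ggps1. Heat shock and the unfolded protein response had 1 higher call (Ddit3) and 3 lower (P4hb, Dnajc28 and Hspd1) among 35. P4hb kept its call whichever library was left out. Ddit3 was not called without ICSI-AOA 1, ICSI-AOA 4, ICSI 5 or ICSI 6 (0.63 to 0.94), Dnajc28 without ICSI-AOA 1, ICSI-AOA 4 or ICSI 6 (−1.04 to −0.67), and Hspd1 without any 1 of the ICSI-AOA libraries, ICSI 6 or dICSI-AOA 5 (−2.70 to −1.82). Ddit3 shares 68 bp with Mars and Hspd1 112 bp with Hspe1. Oxidative stress had 2 lower calls among 19, Gpx7 and Gpx3, of which Gpx3 was not called without ICSI-AOA 1, ICSI-AOA 4, ICSI 5 or ICSI 6 (−0.56 to −0.51). Of 42 cell cycle genes only Cdk4, which shares 641 bp with Tspan31, was called. It was lower (−0.45), and not called without ICSI-AOA 4 or ICSI 6 (−0.38 to −0.37). None of 16 genes of apoptosis, 11 of glycolysis and 18 of the interferon response was called.

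Ribosomal genes were called in both directions, and the few calls among genes of the respiratory chain were lower. The cytosolic ribosomal proteins had 2 higher and 2 lower calls among 46 (8.70%), ribosome biogenesis 2 and 2 among 28 (14.3%), and the mitochondrial ribosome 1 and 1 among 24 (8.33%). Nuclear genes of the respiratory chain had 2 lower calls among 38 (5.26%, against 7.06% of all genes). Their median was 0.13, against −0.02 over all genes, so the list as a whole did not lie lower. The calls were Cox11, lost without ICSI-AOA 5 or ICSI 6 (−1.38 to −1.04), and Atp5a1, lost without ICSI-AOA 4, ICSI 2 or ICSI 6 (−1.77 to −1.34). Cox11 shares 688 bp with Tom1l1 and Atp5a1 129 bp with Haus1. Of the 10 tested genes of the mitochondrial genome only mt-Co1, which shares 3 bp with mt-Ts1, was called, as lower (−0.52), with 109, 163 and 188 fragments in ICSI-AOA libraries and 132, 300 and 192 in ICSI libraries. It was not called without ICSI-AOA 1, ICSI-AOA 4, ICSI 5, ICSI 6 or dICSI-AOA 5 (−0.56 to −0.26). The mitochondrial share of fragments was 8.14% ± 0.81 in ICSI-AOA and 7.49% ± 1.85 in ICSI libraries (SD, n = 3 each, exact permutation test, two-sided, p = 0.7).

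**Figure D5:**
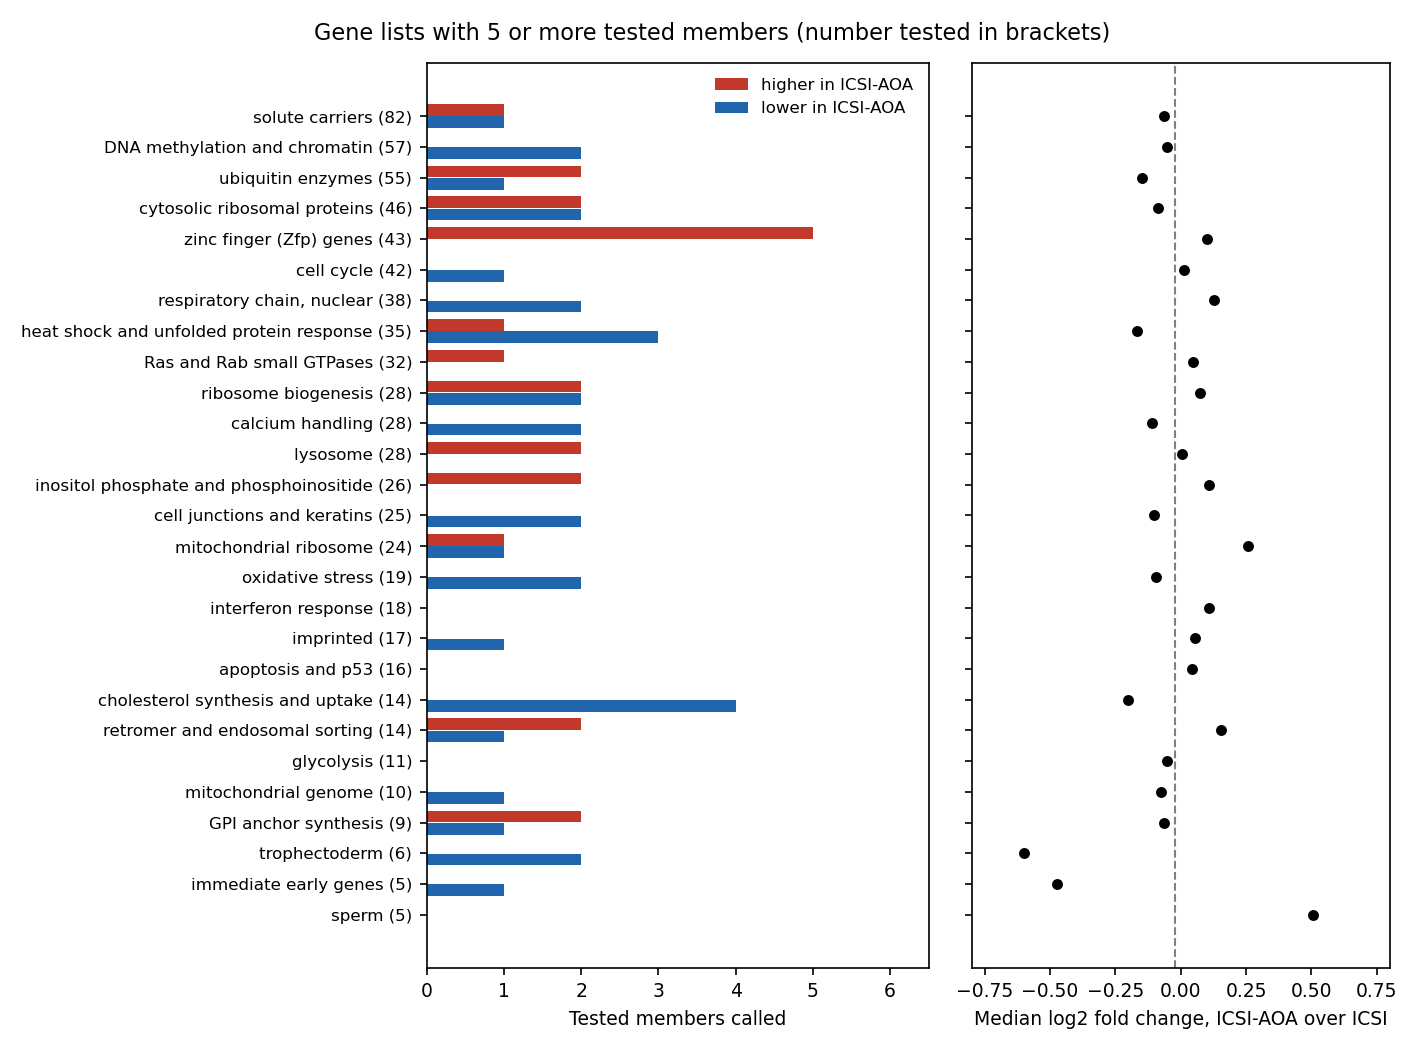
Tested members of each gene list called in each direction between ICSI-AOA and ICSI blastocysts (left panel, number of genes) and the median log2 difference of each list (right panel, with all genes as a dashed line), with 1 row per list of 5 or more tested genes and the number tested in brackets. Zfp genes had 5 higher and 0 lower calls and cholesterol genes 0 higher and 4 lower.

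Markers of the cells of the blastocyst were summed per library. The trophectoderm list, of which 12 of 31 deposited genes had any fragment, summed to 35, 32 and 35 fragments in ICSI-AOA libraries and 52, 69 and 42 in ICSI libraries. Scaled by total fragments alone, without TMM, this was 213 to 231 CPM in ICSI-AOA and 296 to 406 CPM in ICSI libraries (exact permutation test, two-sided, p = 0.1, the smallest that 3 against 3 allows). Its 6 tested genes had no higher call and 2 lower, Krt8 and Elf5, with a median of −0.60. In these sums Krt8 held 4, 2 and 1 and Elf5 4, 4 and 3 fragments in ICSI-AOA libraries. In ICSI libraries Krt8 held 8, 9 and 13 and Elf5 2, 24 and 5, so the sums and the calls share fragments. Whether the list differed without these 2 genes was not tested. In pooled embryos fewer trophectoderm cells and less RNA per cell cannot be told apart. Epiblast markers summed to 16, 8 and 10 fragments in ICSI-AOA libraries and 6, 14 and 13 in ICSI libraries (p = 1, same exact test). Primitive endoderm markers summed to 31, 33 and 36 fragments in ICSI-AOA libraries and 37, 33 and 23 in ICSI libraries (p = 0.9, exact).

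Markers of cumulus cells, which surround the oocyte, summed to 37, 34 and 41 fragments in ICSI-AOA libraries and 26, 36 and 27 in ICSI libraries. Scaled by total fragments alone, without TMM, this was 226 to 265 CPM in ICSI-AOA and 190 to 209 CPM in ICSI libraries. An exact permutation test (two-sided) gave p = 0.1, the smallest that 3 against 3 allows. Most of these fragments came from 1 gene, the only tested gene of this list. It had 100 fragments over all ICSI-AOA libraries, against 80 over all ICSI libraries (log2 difference 0.22). The sums therefore describe mainly that gene, not cumulus markers as a set. Sperm markers summed to 30, 53 and 38 fragments in ICSI-AOA libraries and 25, 31 and 31 in ICSI libraries (p = 0.2, exact). Oocyte markers had 2, 5 and 1 fragments in ICSI-AOA libraries and 2, 3 and 1 in ICSI libraries. No tested gene of these 3 lists was called. The part of these sums in the results above was not tested.

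Igf2r encodes the receptor that takes up insulin-like growth factor 2 and is imprinted. It had 13, 8 and 7 fragments in ICSI-AOA libraries, against 4, 14 and 10 in ICSI libraries. The groups overlapped, and the log2 difference was −0.09 (SE 0.46, adjusted p = 0.991 by edgeR). The deposited FPKM of the same libraries were 22.1, 15.5 and 16.3 in ICSI-AOA and 0.312, 1.17 and 0.886 in ICSI libraries, which did not overlap. limma on log2(FPKM + 1) gave 3.42. The FPKM of this gene were far apart between groups where its fragments were level, and the cause was not tested. Over all 4304 genes the log2 difference in mean FPKM exceeded that in scaled fragments by a median of 0.28. In 289 genes the gap differed from this median by more than 2-fold. Of the 304 called genes 26 did so, and 4 had opposite signs on the scales.

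Nnat, Minpp1, Tmem55b and Inpp5f, which belong to imprinting or inositol metabolism, were not called. Nnat, an imprinted gene of brain and endocrine cells that shares 87 bp with Gm23134, had 154, 212 and 259 fragments in ICSI-AOA libraries and 137, 146 and 194 in ICSI libraries (0.28, SE 0.21). Minpp1, an inositol polyphosphate phosphatase, had 28, 32 and 29 fragments in ICSI-AOA libraries and 27, 20 and 16 in ICSI libraries (0.38, SE 0.30). Tmem55b, a lysosomal phosphoinositide phosphatase, had 150, 148 and 95 fragments in ICSI-AOA libraries and 93, 72 and 121 in ICSI libraries (0.33, SE 0.24), and shares 877 bp with Apex1. Inpp5f had 88, 85 and 89 fragments in ICSI-AOA libraries and 89, 95 and 94 in ICSI libraries (−0.20, SE 0.19). In scaled CPM the groups of Nnat, Minpp1 and Tmem55b overlapped. For Inpp5f every ICSI-AOA library lay below every ICSI library.

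The genes called in ICSI-AOA blastocysts had more fragments than others. Over the 6 libraries the median was 81 fragments for higher genes and 110 for lower genes, against 47 for all genes tested. An opposite-strand partner of at least 100 bp was annotated for 54.3% of the higher genes and 49.7% of the lower genes, against 44.0% of all genes tested.

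The same genes in dICSI-AOA blastocysts are given beside the same ICSI libraries, which the comparisons share. dICSI-AOA differed from ICSI by a call in 284 genes (6.6%), 133 higher (3.09%) and 151 lower (3.51%). For Sgsh, dICSI-AOA libraries had 49, 42 and 51 fragments (0.82 against ICSI, SE 0.26). For Apob they had 15, 11 and 8 (−1.16, SE 0.37), and for Krt8 2, 4 and 4 (−1.69, SE 0.59). For Krr1 they had 57, 37 and 43 (−0.27, SE 0.24), and for Hjurp the difference from ICSI was −0.47 (SE 0.33). Between ICSI-AOA and dICSI-AOA directly, 284 genes were called (6.6%), 128 higher (2.97%) and 156 lower (3.62%) in ICSI-AOA. Of all genes 287 had an unadjusted p under 0.05 there (6.67%) and 6 passed an adjusted p of 0.05 (0.139%).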

How the data were processed

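RNA-seq libraries of pooled mouse blastocysts were analysed. The kit was a TruSeq Stranded one by the labels and a SMARTer Stranded one by the study's methods. The submitters' notes name cutadapt 1.9.3, HISAT2, Cuffdiff and Cufflinks on mm10, with the other versions not given in the sources used here. The authors made the FPKM with Cuffdiff on Ensembl gene models. The estimated counts deposited by the authors were whole fragments multiplied by a factor for each library, since 95.6% to 96.1% of them lay within 0.01 of whole multiples. They were divided by the factor and rounded. Columns of the authors' comparisons (fold changes and p-values) were not used.

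Genes averaging 1 FPKM or more were tested with edgeR 4.0.16 in R 4.3.3 (TMM, quasi-likelihood, 1 mean per group, all 9 libraries, two-sided, Benjamini-Hochberg). SE is the log2 difference divided by the root of F. Single values per library were compared by exact permutation over 20 splits. The script was tested on simulated data. Positions and exon overlaps are those of GENCODE vM21, where 96.8% of the deposited genes had an entry. Alternatives were other scalings, DESeq2 1.42.0, limma 3.58.1 on log2(FPKM + 1) or log2(FPKM + 0.1), other filters and leaving out each library.

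Named genes are those past an adjusted p of 0.05, the 12 called higher and 12 called lower with the smallest p and no overlap between groups (20 or more fragments), the 6 and 6 with the largest differences (8 or more fragments), the 5 called genes with the most fragments, up to 4 called members of each list, Igf2r, Nnat, Inpp5f, Minpp1, Tmem55b and reference genes. Not all of them are described, and 1 is not reported here. Members and lists were chosen with earlier results of these data known.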

Additional observations from a re-analysis of the deposited data

Results flagged for a closer look

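Genes were listed here when ICSI-AOA blastocysts differed from dICSI-AOA blastocysts past an adjusted p of 0.05 in the edgeR test of that difference (log2, ICSI-AOA minus dICSI-AOA). Alpk3 differed by −3.08 (SE 0.46, adjusted p = 0.00194), with 5, 3 and 7 fragments in ICSI-AOA libraries, against 27, 78 and 26 in dICSI-AOA libraries. Acot11 differed by −5.27 (SE 0.85, adjusted p = 0.00311), with 1 fragment in each ICSI-AOA library, against 3, 79 and 50 in dICSI-AOA libraries. Ctu2 differed by 1.55 (SE 0.29, adjusted p = 0.0149), with 39, 53 and 51 fragments in ICSI-AOA libraries, against 19, 13 and 18 in dICSI-AOA libraries. Pde5a, a phosphodiesterase of cyclic GMP, differed by −1.86 (SE 0.35, adjusted p = 0.0163), with 37, 36 and 71 fragments in ICSI-AOA libraries, against 85, 113 and 345 in dICSI-AOA libraries, and shares 55 bp with 4930447N08Rik. Syt12 differed by 1.0 (SE 0.20, adjusted p = 0.0296), with 118, 167 and 162 fragments in ICSI-AOA libraries, against 72, 81 and 75 in dICSI-AOA libraries. Gm5148 differed by −1.45 (SE 0.30, adjusted p = 0.0303), with 37, 24 and 20 fragments in ICSI-AOA libraries, against 46, 106 and 73 in dICSI-AOA libraries, and shares 396 bp with Rps23-ps1. In all 6 genes the groups did not overlap in fragments. Single libraries were not tested for standing apart, because groups of 3 are too small for it.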

How the results depend on the processing

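The count of called genes, 304, was between 293 and 351 with other scalings of fragments, with limma on FPKM, with only the 6 libraries compared, with no trend in the spread and without mitochondrially encoded genes. It was 146 with DESeq2, 529 with no filter, 156 with a mean FPKM of 5 or more, 177 with a mean of 10 or more fragments, and 145 without genes that have an opposite-strand partner, an alternative chosen after seeing the data. Fewer genes were tested under these last 3 settings (1800, 1881 and 2377). Of the 304 genes, 299 were called again with upper quartile scaling, 268 with total fragments, 174 with the authors' factors, 146 with DESeq2 and 141 by limma on log2(FPKM + 1). The count past an adjusted p of 0.05, 1 gene, was 6 with the authors' factors, 18 with no filter, 2 each with DESeq2, without mitochondrially encoded genes and without partner genes, and 0 by limma with either pseudocount, with a mean FPKM of 5 or more, with a mean of 10 or more fragments, with the 6 libraries alone and with no trend. Where that count was 0, genes with an unadjusted p under 0.05 numbered 332 and 333 by limma with pseudocounts of 1 and 0.1, and by edgeR 160, 180, 318 and 297 under the other 4 settings. Leaving out 1 library at a time gave 241 to 331 called genes and 0 to 4 past the adjusted threshold. Igf2r was −0.09 on fragments, with no direction beyond its SE, and 3.42 and 4.48 by limma on FPKM with pseudocounts of 1 and 0.1, and the cause was not tested. Of the 82 called genes chosen by rule 25 kept their call under every alternative. No paired analysis was possible because ICSI-AOA and ICSI share only replicate number 5. ICSI-AOA and dICSI-AOA share 3 numbers, and with the replicate block 286 genes were called between them and 19 passed an adjusted p of 0.05, against 284 and 6 without it. Same-numbered libraries of these groups correlated by −0.01 to 0.06 after group means were removed, and differently numbered ones by −0.08 to 0.02. These ranges overlapped, and the numbers were not used as pairs. Depth limited genes under 10 fragments over the 6 libraries, of which 1.82% were called.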

Other observations

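Cep85 and Celsr3 were the only genes with 1000 or more fragments that were called higher, and both were chosen after their values were seen. Celsr3, a cadherin of planar cell polarity, had 200, 214 and 212 fragments in ICSI-AOA libraries and 134, 151 and 96 in ICSI libraries (log2 difference 0.61, SE 0.20). Cep85, a centrosomal protein, had 279, 509 and 313 fragments in ICSI-AOA libraries and 316, 176 and 88 in ICSI libraries (0.78, SE 0.31), and its groups overlapped in fragments. Neither has an annotated opposite-strand partner.

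Of 6 tested genes of the MS4A family on chromosome 19 only Ms4a15 and Ms4a18 were called. Ms4a1 had 2, 6 and 2 fragments in ICSI-AOA libraries and 2, 1 and 2 in ICSI libraries, and Ms4a4c had 3, 1 and 0 in ICSI-AOA libraries and 0, 0 and 1 in ICSI libraries. Ms4a4b had 6, 12 and 9 fragments in ICSI-AOA libraries and 5 in each ICSI library, and Ms4a6c had 13, 9 and 13 fragments in ICSI-AOA libraries and 24, 10 and 9 in ICSI libraries. The cluster was not tested as a whole. Ms4a4c shares 28 bp with Gm5692 and Ms4a6c 1088 bp with BE692007. Next to Vps26b on chromosome 9, at a distance of 67319 bp, Jam3, a junctional adhesion molecule, had 14, 8 and 11 fragments in ICSI-AOA libraries and 4 in each ICSI library (1.32, SE 0.51), and shares 1159 bp with Gm48796.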
